A study of Mus musculus with 55 samples.

Results

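The Saa, Orm and Lcn2 genes encode plasma proteins of the acute phase, and their RNA was measured in livers of male mice 45 to 50 days old. Members were all genes with a name beginning with Saa, the names Orm1 to Orm3, and Lcn2, wherever either of 2 deposited gene tables listed them. The rule found 9 of the 4113 genes listed in the tables: Saa1, Saa2, Saa3, Saa4 and Saa-ps on chromosome 7, Orm1, Orm2 and Orm3 on chromosome 4, and Lcn2 on chromosome 2. The Setd8-LKO + TCPOBOP table (3900 genes) held 6 of them, the WT + TCPOBOP table (719 genes) held 7, and both tables held 4.

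RNA-seq covered untreated wild type mice (WT, n = 5), wild type mice given TCPOBOP (WT + TCPOBOP, n = 5) and Setd8-LKO mice given TCPOBOP (Setd8-LKO + TCPOBOP, n = 4). TCPOBOP, a synthetic agonist of the nuclear receptor CAR that drives hepatocytes to divide, was given in a single injection of 3 mg/kg, 24 h before collection of the liver. Setd8-LKO mice carry Setd8 alleles with loxP sites around exon 7 and the Alb-Cre transgene, so that the histone H4K20 methyltransferase Setd8 is lost in cells that express albumin, and no untreated Setd8-LKO liver was part of the RNA groups. Genotype and treatment therefore change together in the comparison of Setd8-LKO + TCPOBOP with WT. The labels call the controls untreated, while the methods name a corn oil vehicle, so an injection may also differ between the groups. Kmt5a, the gene of Setd8, had normalized counts of 563 to 761 in WT and 1313 to 1465 in the Setd8-LKO libraries as labelled, which does not check the deletion because counts per gene do not separate exon 7. ATAC-seq, ChIP-seq for H3K27ac, CTCF and SMC3, and CUT&Tag for Lamin A/C and H4K20me3 gave lists of enriched regions for WT and for Setd8-LKO + TCPOBOP.

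During infection or injury, interleukin 6 and interleukin 1 reach the liver and act on hepatocytes through STAT3, NF-κB and C/EBP factors, and the hepatocytes then secrete acute-phase proteins. Saa1 and Saa2 encode serum amyloid A proteins that travel on high density lipoprotein, Saa3 encodes a form made mostly by other cells such as macrophages and adipocytes, Saa4 encodes a form made constitutively by the liver, and Saa-ps is a pseudogene of the cluster. Orm1, Orm2 and Orm3 encode orosomucoids, plasma carriers of drugs and lipids. Lcn2 encodes lipocalin 2, which binds bacterial siderophores and so withholds iron, and which neutrophils store in their granules as well.

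All positions are those of GENCODE M21 on GRCm38, the build of the deposited files (mm10). The Saa cluster runs along chromosome 7 from Saa3 (chr7:46711998-46715700, minus strand) through Saa4 (chr7:46727998-46732603, minus), Saa-ps (chr7:46734787-46736671, minus, an unprocessed pseudogene) and Saa1 (chr7:46740497-46742980, minus) to Saa2 (chr7:46751790-46754313, plus). The Orm genes lie on the plus strand of chromosome 4 in the order Orm1 (chr4:63344560-63348163), Orm3 (chr4:63356162-63359511) and Orm2 (chr4:63362449-63365878). Lcn2 stands alone at chr2:32384633-32388252 on the minus strand.

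These promoters are shown because Saa1 and Saa2, and likewise Orm2 and Orm3, are paralogs that all rose in wild type liver after TCPOBOP. Saa4, of the same cluster as Saa1 and Saa2, fell in Setd8-LKO + TCPOBOP. Saa1 and Saa2 were listed for WT + TCPOBOP alone and Saa4 for Setd8-LKO + TCPOBOP alone, so no comparison holds both. Each line gives the 250 bases before the RefSeq gene start, 5′ to 3′ on the strand of the gene, from RefSeq on GRCm38.p6, with matches to the C/EBP-type motif TTGCNNAA on either strand in capitals. RefSeq promoter windows were matched for 7 of the 9 genes, all but Orm1 and Saa-ps.
Saa1 (chr7:46742981-46743230): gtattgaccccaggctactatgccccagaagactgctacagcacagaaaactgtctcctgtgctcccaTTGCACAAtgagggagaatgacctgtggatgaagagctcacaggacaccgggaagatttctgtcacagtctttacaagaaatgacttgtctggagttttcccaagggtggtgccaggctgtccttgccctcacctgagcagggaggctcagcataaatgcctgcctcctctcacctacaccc
Saa2 (chr7:46751583-46751832): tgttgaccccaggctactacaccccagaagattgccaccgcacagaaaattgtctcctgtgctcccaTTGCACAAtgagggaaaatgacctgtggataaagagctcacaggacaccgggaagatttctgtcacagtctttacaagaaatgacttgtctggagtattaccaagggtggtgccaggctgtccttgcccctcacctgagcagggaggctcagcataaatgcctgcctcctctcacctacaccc
Saa4 (chr7:46732604-46732853): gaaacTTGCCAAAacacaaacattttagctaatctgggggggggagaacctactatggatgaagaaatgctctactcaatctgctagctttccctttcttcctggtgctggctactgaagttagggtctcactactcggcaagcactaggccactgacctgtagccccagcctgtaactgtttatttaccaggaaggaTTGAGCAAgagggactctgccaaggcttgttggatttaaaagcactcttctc
Orm2 (chr4:63362199-63362448): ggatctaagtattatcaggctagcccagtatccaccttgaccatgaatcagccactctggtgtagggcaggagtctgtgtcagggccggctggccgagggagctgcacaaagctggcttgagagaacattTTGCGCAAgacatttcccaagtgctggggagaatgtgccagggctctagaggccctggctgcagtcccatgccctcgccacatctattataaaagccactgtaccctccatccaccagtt
Orm3 (chr4:63355908-63356157): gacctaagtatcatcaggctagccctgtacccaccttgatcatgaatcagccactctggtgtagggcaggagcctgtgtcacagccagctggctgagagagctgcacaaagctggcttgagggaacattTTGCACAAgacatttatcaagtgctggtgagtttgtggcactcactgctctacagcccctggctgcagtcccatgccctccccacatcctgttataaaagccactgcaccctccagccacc

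The Saa1 and Saa2 windows matched at 96.0% of 247 aligned bases and the Orm2 and Orm3 windows at 89.4% of 245. A C/EBP-type match was found in all 7 windows, including TTATGCAA in Saa3 and TTGCTCAA in Lcn2, against 9.56% of the 32851 promoter windows of the reference. Saa1, Saa2 and Orm3 held the same letters, TTGCACAA, whereas Orm2 held TTGCGCAA and Saa4 held both TTGCCAAA and TTGAGCAA. The NF-κB-type motif GGGNNNNNCC was matched on either strand in 4 of the 7 windows (Saa1, Saa2, Saa4 and Lcn2) and in 45.8% of all windows. The STAT-type motif TTCNNNGAA was matched in 0 of 7 and in 7.02% of all windows. The motifs were chosen after the values were seen, the similar windows are not independent, and a match is a run of letters, not a site of binding.

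The transcripts within each family are similar enough for reads to be shared. Saa1 and Saa2 matched at 94.4% of 606 bases, Orm1 and Orm2 at 91.0% of 775, Orm2 and Orm3 at 89.0% of 771, and Saa-ps matched Saa2 at 87.0% of 238 bases. How reads with several matches were counted is not given in the sources used here, so the division of counts within a pair is uncertain.

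Values are normalized counts, that is, raw read counts times a deposited factor for each library. The 5 WT libraries hold the same normalized counts in both tables. Factors ran from 0.752 to 0.855 in Setd8-LKO + TCPOBOP, from 1.03 to 1.25 in WT and from 1.09 to 1.39 in WT + TCPOBOP. Only genes that the authors selected for a difference on these libraries are listed, so raw sums over the listed genes (5734065 to 12780869 reads in the Setd8-LKO table, 1389901 to 3706582 in the WT + TCPOBOP table) are not depths, and a gene past the threshold here is not independent evidence of its change. The headers sort the libraries into 2 runs, A and B, and do not say what a run is. WT was split 3 to 2 between them, WT + TCPOBOP 3 to 2 and Setd8-LKO + TCPOBOP 1 to 3. With edgeR's quasi-likelihood test, a gene counted as called where the adjusted p was below 0.05 and the log2 fold change was 1 or more in size. In liver tissue, fewer cells of a type and less RNA per cell cannot be told apart.

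WT replicate 4, of run A, stood apart from the other WT libraries in these genes. Its normalized count was more than 2 times the highest other WT value for 47 of 3378 listed genes with a mean of at least 10 (1.39%), against 6 to 24 genes for each of the other WT libraries. Those 47 included 8 of the 8 members in that count, led by Saa2 (41869, against 144 to 477 in the other 4 libraries), Saa1 (44565 against 347 to 814), Lcn2 (3809 against 18 to 49) and Saa3 (1377 against 27 to 55). They also included 9 of the 26 other positive acute-phase genes counted, among them haptoglobin (Hp), which binds free haemoglobin, with 137082 against 29552 to 41845. The tests of the members against WT and the counts of the gene lists are therefore given with and without replicate 4.

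**Figure D1:**
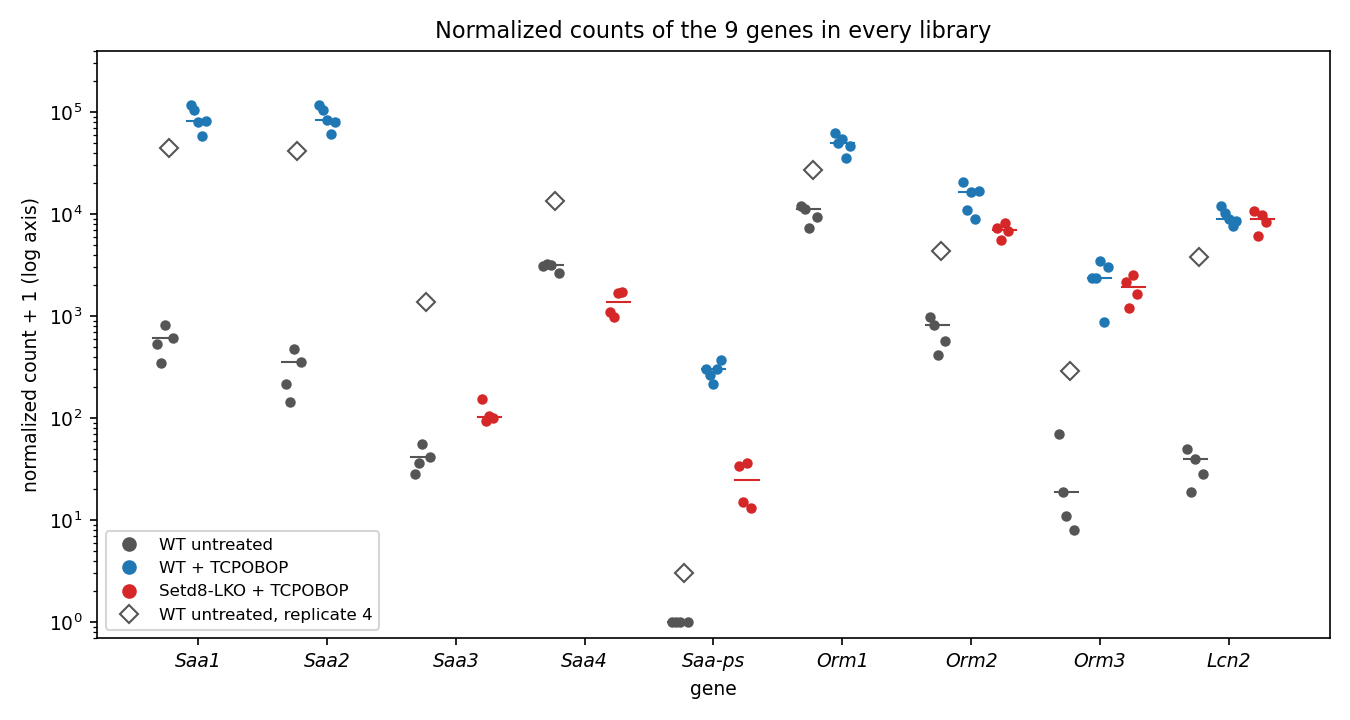
Normalized counts plus 1 on a log axis for the 9 genes, with a point for each WT, WT + TCPOBOP and Setd8-LKO + TCPOBOP library and a short line at each group's median. WT replicate 4 (open diamond) lies above the other WT libraries for every gene, and genes without points in a group were not listed in that table.

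The comparison of WT + TCPOBOP with WT asks what changed in wild type liver 24 h after TCPOBOP. All 7 listed members rose after TCPOBOP and 0 fell, against 68% of the 679 tested genes of that table called higher and 30.9% called lower, and their median log2 fold change was 3.39 beside 1.35 over all tested genes. The 2 groups did not overlap for 7 of 7 members, all higher after TCPOBOP, against 60.5% of tested genes without overlap and higher and 21.2% without overlap and lower. Without WT replicate 4 all 7 were again called higher and the median was 7.26 beside 1.40 over all tested genes.

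Saa1 had normalized counts of 118238, 104206, 80341, 57963 and 82562 in WT + TCPOBOP replicates 1 to 5, and of 533, 347, 814, 44565 and 614 in WT replicates 1 to 5. Every treated library lay above replicate 4, the highest WT library. The log2 fold change was 3.24 ± 1.32 (SE, adjusted p = 0.0318, edgeR), and without replicate 4 it was 7.26 ± 0.36 (adjusted p = 1.27e-07), a 154-fold difference of the means.

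Saa2 followed Saa1 closely, with 118353, 105831, 84336, 60893 and 80005 in WT + TCPOBOP and 214, 144, 477, 41869 and 351 in WT. Its log2 fold change was 3.38 ± 1.48 (adjusted p = 0.0433, edgeR), and 8.24 ± 0.46 without replicate 4 (adjusted p = 2.10e-07). The ratio of raw reads of Saa1 to Saa2 was 1.70 to 2.49 in the 4 low WT libraries, 1.06 in WT replicate 4 and 0.952 to 1.03 in WT + TCPOBOP, so the pair were near equal wherever they were high. Per kilobase of transcript, the order of median normalized levels in WT + TCPOBOP was Saa2 (139168), Saa1 (135570), Orm1 (64337), Orm2 (21246), Lcn2 (9884), Orm3 (3048) and Saa-ps (934). The ranges of Saa2 and Saa1 overlapped, as did those of Orm2 and Lcn2 and those of Orm3 and Saa-ps.

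Orm1, which had the highest level per kilobase in 4 of the 5 WT libraries, had normalized counts of 12000, 11341, 7243, 27044 and 9336 in WT and of 61967, 49861, 54514, 35120 and 46687 in WT + TCPOBOP. Its rise was the smallest of the 7, with a log2 fold change of 1.89 ± 0.34 (adjusted p = 0.000281, edgeR) and 2.31 ± 0.21 without replicate 4 (adjusted p = 5.29e-06). Orm2 went from 971, 812, 412, 4327 and 566 in WT to 20818, 10958, 16466, 9034 and 16958 in WT + TCPOBOP, a log2 fold change of 3.39 ± 0.63 (adjusted p = 0.00037, edgeR), or 4.43 ± 0.36 without replicate 4. Orm3 went from 69, 18, 10, 291 and 7 to 2345, 2356, 3439, 882 and 3032, with a log2 fold change of 4.92 ± 0.98 (adjusted p = 0.000551, edgeR), or 6.53 ± 0.76 without replicate 4. The lower an orosomucoid gene stood in WT, the larger was its fold change, and no treated library overlapped a WT library for any of them.

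Lcn2 had 49, 18, 39, 3809 and 27 normalized counts in WT and 11900, 10309, 9044, 7639 and 8565 in WT + TCPOBOP. The mean of the treated libraries was 12.0-fold that of all WT libraries and 285-fold that of the other 4. The log2 fold change was 3.59 ± 1.42 (adjusted p = 0.0276, edgeR) and 8.15 ± 0.36 without replicate 4 (adjusted p = 1.06e-07).

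Saa-ps, the pseudogene between Saa4 and Saa1, gave 2 raw reads in all 5 WT libraries together, both in replicate 4, and 1198 in the 5 WT + TCPOBOP libraries. Its normalized counts were 0, 0, 0, 2 and 0 in WT and 299, 262, 213, 301 and 374 in WT + TCPOBOP. The ratio of summed raw reads, each sum divided by the summed inverse library factors of its group, was 667 (95% counting interval 184 to 5517), and without replicate 4 at least 351-fold with 3 counts over the WT group as the floor. The edgeR test gave an adjusted p of 1.77e-07.

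For all 7 genes the exact two-sided permutation test of the group means gave p = 0.00794, the smallest value that 5 against 5 libraries allow. Within runs the log2 fold changes of the 7 genes were all positive, and for Saa1, Saa2, Lcn2 and Saa-ps they were 2.72, 2.85, 3.01 and 8.26 in run A, which holds replicate 4, and 7.32, 8.61, 7.90 and 11.14 in run B. Leaving out any 1 library other than WT replicate 4 ended the call of Saa2 (adjusted p = 0.0515 to 0.072, edgeR), and leaving out WT replicate 1, 3 or 5 or WT + TCPOBOP replicate 1 ended that of Saa1 (0.0507 to 0.0558). The calls of Saa1, Saa2 and Lcn2 were lost when p-values were adjusted over all 55450 genes of the annotation (adjusted p = 1 for each), and when libraries were scaled on the listed genes alone, where adjusted p ranged from 0.119 to 0.185. That scaling also ended the call of Orm1, with a log2 fold change of 0.88 or 0.74.

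**Figure D2:**
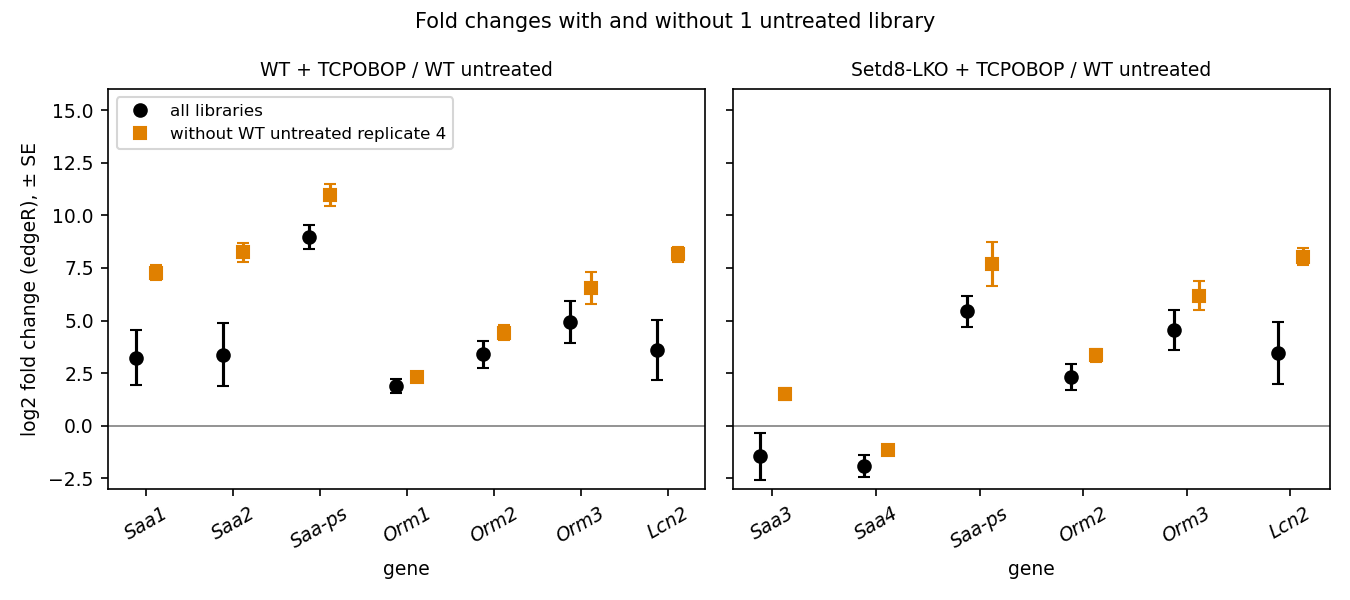
Log2 fold changes (edgeR, bars show the SE) of the listed members in WT + TCPOBOP (left) and Setd8-LKO + TCPOBOP (right) against WT, with all libraries (circles) and without WT replicate 4 (squares). Saa3 changes sign in the right panel, from -1.45 to 1.51, and Saa4 stays below 0 in both fits; the fitted value of Saa-ps without replicate 4 is set by a WT group at 0 reads and depends on the prior count.

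The comparison of Setd8-LKO + TCPOBOP with WT sets treated livers labelled Setd8-LKO against untreated wild type livers, so the genotype and TCPOBOP cannot be told apart in it. Of the 6 members listed in that table, 4 rose (Lcn2, Orm2, Orm3 and Saa-ps), Saa4 fell and Saa3 was not called. The background was 59% of the 3807 tested genes called higher and 39% called lower, and the median log2 fold change of the 6 was 2.89 beside 1.19 over all tested genes. The groups did not overlap with Setd8-LKO + TCPOBOP higher for 4 members, against 51.6% of tested genes, and with it lower for 1, against 34.5%. Without WT replicate 4, 5 members were called higher, Saa3 among them, and Saa4 lower. Saa1, Saa2 and Orm1 were not listed for these livers and were not analysed here.

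Lcn2 reached 10774, 6096, 9736 and 8338 normalized counts in Setd8-LKO + TCPOBOP replicates 1 to 4. All 4 libraries were above WT replicate 4 and far above the other WT libraries. The log2 fold change was 3.47 ± 1.47 (adjusted p = 0.0398, edgeR), and 8.04 ± 0.40 without replicate 4 (adjusted p = 8.08e-07), with 2.69 in run A and 8.04 in run B. The call with all libraries was lost in each of the other leave-outs: leaving out any of the other 8 libraries gave an adjusted p of 0.051 to 0.0654, and adjustment over the whole annotation gave 0.58. That adjustment also ended the calls of Orm2 (0.0571) and Saa4 (0.0592).

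Orm2 had 7350, 5616, 8243 and 6781 normalized counts in Setd8-LKO + TCPOBOP, and its log2 fold change was 2.30 ± 0.62 (adjusted p = 0.00392, edgeR), or 3.34 ± 0.29 without replicate 4. Orm3 had 2176, 1206, 2526 and 1652, with a log2 fold change of 4.57 ± 0.95 (adjusted p = 0.000819, edgeR), or 6.18 ± 0.70 without replicate 4. Both genes were higher in 4 of 4 libraries than in any WT library. Within runs A and B the log2 fold changes were 1.94 and 2.99 for Orm2, and 4.0 and 5.48 for Orm3.

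Saa-ps had 33, 14, 35 and 12 normalized counts, from 122 raw reads in all. The same ratio to WT was 55.0 (95% counting interval 14.9 to 459), and at least 28.9-fold without replicate 4. The edgeR test gave an adjusted p of 5.23e-05. Within runs the fitted log2 fold changes were 3.87 in run A and 7.96 in run B.

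Saa4, the form called constitutive above, moved the other way, and in WT replicate 4 it was high like the other members. Its normalized counts were 1090, 980, 1687 and 1727 in Setd8-LKO + TCPOBOP and 3097, 3223, 3204, 13550 and 2654 in WT. The 4 lower WT libraries lay within a narrow range, and every Setd8-LKO library was below them. The log2 fold change was -1.91 ± 0.51 (adjusted p = 0.00407, edgeR), and it was -1.15 ± 0.21 without replicate 4 (adjusted p = 0.000594). It was -1.91 in run A and -1.33 in run B.

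Saa3 was not called with all libraries, with a log2 fold change of -1.45 ± 1.13 (adjusted p = 0.227, edgeR). Its normalized counts were 152, 92, 104 and 100 in Setd8-LKO + TCPOBOP and 27, 35, 55, 1377 and 41 in WT, so the Setd8-LKO libraries lay between replicate 4 and the rest. Without replicate 4 the direction turned, and Saa3 was called higher with a log2 fold change of 1.51 ± 0.28 (adjusted p = 0.000603). The values were -2.29 in run A and 1.91 in run B.

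Permuting the libraries, the exact two-sided test of the means gave p = 0.00794 for Lcn2, Orm3 and Saa-ps, the smallest value that 4 against 5 libraries allow, 0.0159 for Orm2, 0.0397 for Saa4 and 1 for Saa3. Per kilobase of transcript the order of medians in Setd8-LKO + TCPOBOP was Lcn2 (9876), Orm2 (9117), Orm3 (2476), Saa4 (663), Saa3 (184) and Saa-ps (73.4). The ranges of Lcn2 and Orm2 overlapped. In the 4 other WT libraries the order was Orm1 (13340), Saa4 (1505), Saa1 (942), Orm2 (889), Saa2 (466), Saa3 (68.5), Lcn2 (36.1) and Orm3 (18.1), and Saa-ps was at 0. There the range of Saa4 overlapped that of Saa1, the range of Saa1 that of Orm2, and the range of Orm2 that of Saa2, as did the ranges of Saa3 and Lcn2 and of Lcn2 and Orm3.

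The 4 genes in both tables allow the livers labelled Setd8-LKO and the wild type livers to be compared after the same agonist. These tests were added after the values were seen, over the 506 genes listed in both tables, of which 27.3% were called lower in Setd8-LKO + TCPOBOP. Saa-ps was lower in Setd8-LKO, with 12 to 35 normalized counts against 213 to 374, a log2 difference of -3.61 ± 0.44 (adjusted p = 4.88e-06, edgeR; exact permutation p = 0.00794). The mean in WT + TCPOBOP was 12.3-fold that in Setd8-LKO + TCPOBOP, and the groups did not overlap.

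Orm2 was also lower in every Setd8-LKO library, with 5616 to 8243 against 9034 to 20818. The log2 difference was -1.09 ± 0.56 (adjusted p = 0.115, edgeR; exact permutation p = 0.0238), and the adjusted p was 0.00459 without WT replicate 4, which entered the estimate of spread, and 0.0028 with only the 2 treated groups. For Lcn2 the ranges overlapped (6096 to 10774 against 7639 to 11900), and the log2 difference of -0.12 had a 95% interval of -2.46 to 2.22. For Orm3 (1206 to 2526 against 882 to 3439) the difference was -0.35 with an interval of -1.91 to 1.21. Both intervals come from the fit with all 3 groups, where WT replicate 4 entered the estimate of spread, and are not intervals of the 2 treated groups alone. The means of Lcn2 were 8736 (SD 2023) and 9491 (SD 1655). The exact permutation p was 0.571 for Lcn2 and 0.389 for Orm3. No difference was shown for either gene, and equality was not tested. The ratio of Lcn2 to Orm2 was 1.09 to 1.47 in Setd8-LKO + TCPOBOP and 0.505 to 0.941 in WT + TCPOBOP, and these ranges did not overlap.

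Saa-ps did not keep a fixed share of the reads of its neighbours. In WT replicate 4, where Saa1 had 43298 raw reads and Saa2 had 40678, Saa-ps had 2, a share of 0.00238% (95% Clopper-Pearson interval 0.000288 to 0.0086%). In WT + TCPOBOP its share was 0.125 to 0.129% in the 3 libraries of run A and 0.229 to 0.253% in the 2 of run B. The intervals of the WT + TCPOBOP libraries lay above that of replicate 4, and those of run B above those of run A. In the other 4 WT libraries 0 reads of Saa-ps were counted beside 115 to 464 of Saa2. The upper ends of the intervals were 0.294 to 0.937%, so no library alone could show whether it had a share like that after TCPOBOP. The 4 libraries were not pooled. These intervals cover counting error only.

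**Figure D3:**
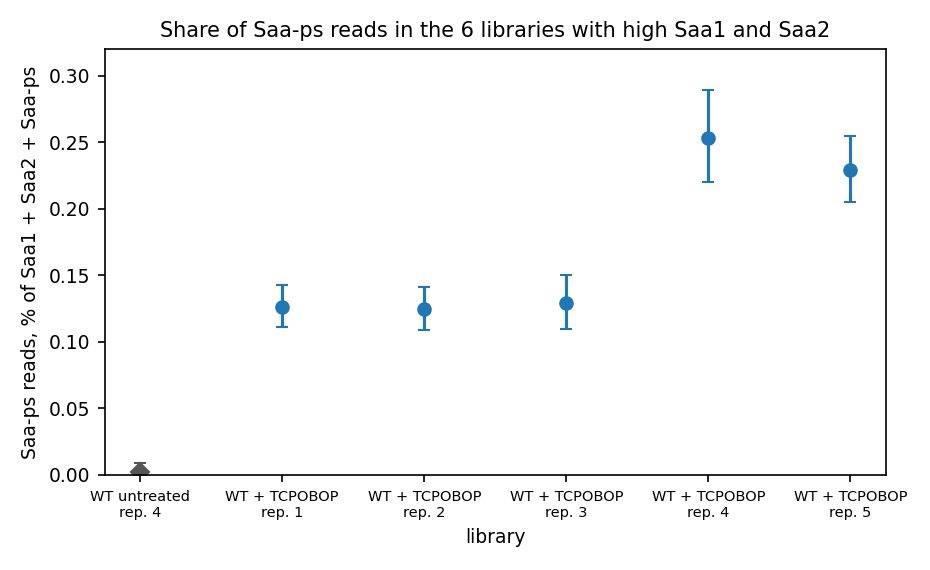
Reads of Saa-ps as a percentage of the reads of Saa1, Saa2 and Saa-ps in the 6 libraries of the WT + TCPOBOP table in which Saa1 and Saa2 were high, with 95% Clopper-Pearson intervals. WT replicate 4 is at 0.00238%, and the WT + TCPOBOP libraries are at 0.125 to 0.253%.

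The list of 40 other positive acute-phase genes was meant to hold genes that rise in inflamed liver, which was not tested gene by gene. For WT + TCPOBOP 12 were listed and 11 tested, and 9 rose and 0 fell. Over all tested genes of that table, 68% were called higher and 30.9% lower. The median log2 fold change of the 11 was 1.66 beside 1.35 over all tested genes. Apcs, which encodes serum amyloid P component, rose by 3.35 on the log2 scale (3.90 without WT replicate 4), Fgl1, a secreted fibrinogen-like protein, by 2.06 (2.60), and Hp by 1.83 (2.49). Mt2, a metallothionein that binds zinc and copper, was at 1.92 and was not called (adjusted p = 0.211, edgeR), and it was not called without WT replicate 4 either (3.28). Without that library 10 of the 12 listed genes were called higher, with a median of 2.47 beside 1.40 over all tested genes.

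For Setd8-LKO + TCPOBOP 18 of the 40 were listed and 17 tested, of which 4 rose and 11 fell. Over all tested genes of that table, 59% were called higher and 39% lower. The median log2 fold change of the 17 was -1.22 beside 1.19 over all tested genes. The largest changes were falls of Pigr, the receptor that carries polymeric immunoglobulin into bile (log2 fold change -3.82), Serpina1e, an antitrypsin gene (-3.48), and Serpina3k and Serpina3m, further serine protease inhibitors (-3.37 and -3.26). These 4 were not raised in WT replicate 4, where Saa1 and Saa2 were high. There they stood at 0.925, 0.798, 0.915 and 0.923 of the median of the other WT libraries. The other genes that fell stood at 0.795 to 1.45 of it. Serpina1 and Serpina3 genes are near-identical copies, and their counts may be shared. The 4 that rose were Cd14, a coreceptor for lipopolysaccharide (2.69), Vnn1, a pantetheinase (1.84), Apcs (1.78) and Il1rn, the antagonist of the interleukin 1 receptor (1.65), named after their values were seen. Without WT replicate 4 the counts were 4 and 10.

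**Figure D4:**
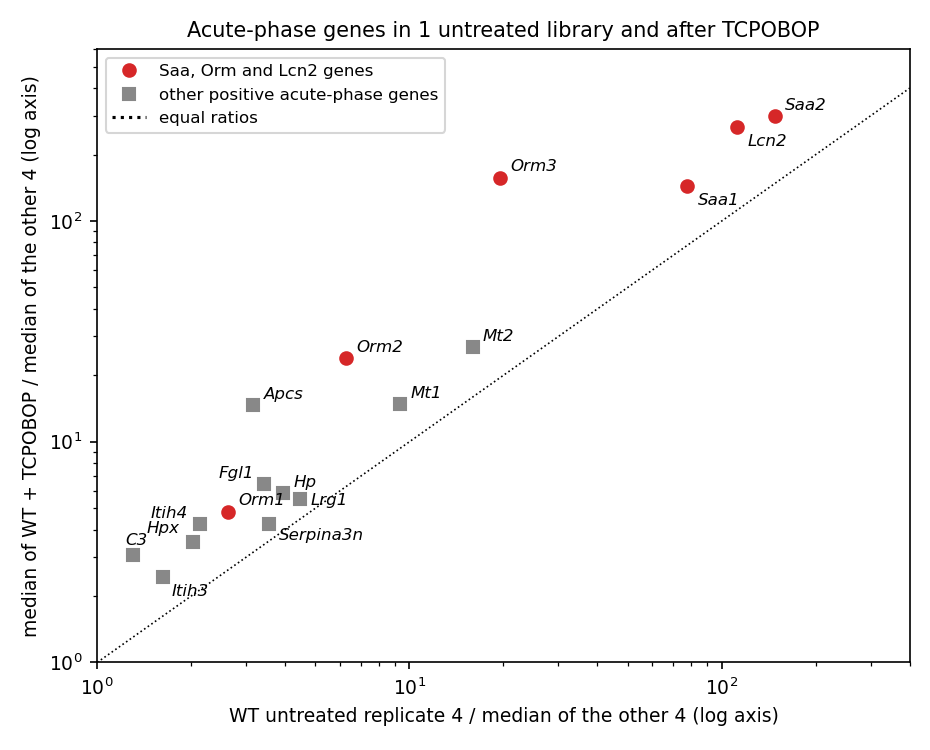
Each point is a member or another positive acute-phase gene tested for WT + TCPOBOP with all libraries. The x axis (log) gives the ratio of WT replicate 4 to the median of the other 4 WT libraries. The y axis (log) gives the ratio of the WT + TCPOBOP median to the same median, with 1 added to each value on both axes. Saa2 lies at 148 on the x axis, Lcn2 at 112 and Saa1 at 77.6, and all genes drawn lie above the dotted line of equal ratios. Saa-ps is not drawn, since its WT median is 0. Chil1, listed but not tested with all libraries, and the negative acute-phase genes Serpina6 and Apoa4 are not drawn either.

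Negative acute-phase genes, which encode proteins such as albumin that fall in the plasma during inflammation, were listed for 10 of 18 in Setd8-LKO + TCPOBOP, where 9 fell and Apoa4 rose (log2 fold change 5.68), in a table with 39% of tested genes called lower and 59% higher. The median log2 fold change of the 10 was -1.31 beside 1.19 over all tested genes. Besides Apoa4, an apolipoprotein, the largest changes were in the bile acid enzyme Cyp8b1 (-3.61), the growth factor carrier Igfals (-2.77) and the thyroid hormone carrier Ttr (-1.60). In WT + TCPOBOP 2 of the 18 were listed, and both rose, Serpina6, the corticosteroid carrier, by 1.5 and Apoa4 by 1.22 on the log2 scale.

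Of 43 genes for cytokines, receptors and factors that control the acute phase, the Setd8-LKO + TCPOBOP table listed 9, and 0 stood in the other. The list was not complete, so other genes of this kind may stand in either table. The median of the 9 was -1.29 on the log2 scale. Over all tested genes of the Setd8-LKO + TCPOBOP table, 59% were called higher and 39% lower. The 5 that fell were Il1rap (log2 fold change -2.39), a chain of the interleukin 1 receptor, Lifr (-2.39), the receptor of leukaemia inhibitory factor, Il6ra (-2.34), the interleukin 6 receptor, Cebpa (-2.24), a C/EBP factor, and Socs2 (-1.29), a suppressor of cytokine signals. The 4 that rose were Lif, with 0 counts in every WT library and 14 to 70 normalized counts in Setd8-LKO + TCPOBOP, Tnfaip3 (1.62) and Relb (1.59) of the NF-κB system, and Osmr (1.43), the oncostatin M receptor. Il6 itself, Stat3 and Cebpb were not listed in either table. Of 14 receptors and partners of the proteins, Lrp2, the endocytic receptor megalin (-3.0), Fpr2 (-1.44), a formyl peptide receptor that binds serum amyloid A, and Scarb1 (-1.02), the receptor for high density lipoprotein, fell in Setd8-LKO + TCPOBOP, and Lrp2 fell in WT + TCPOBOP (-1.78). Normalized counts of Lrp2 were low, at 38 to 79 in WT, 2 to 9 in Setd8-LKO + TCPOBOP and 9 to 25 in WT + TCPOBOP. Those of Fpr2 were low as well, at 15 to 43 in WT and 5 to 11 in Setd8-LKO + TCPOBOP. Without WT replicate 4 the numbers called higher and lower were the same for the negative acute-phase genes, the regulators and the receptors.

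Markers of other cells moved in the same libraries. Of 15 neutrophil markers, S100a8 and S100a9 were listed for Setd8-LKO + TCPOBOP, with a summed normalized count of 6 to 39 in 4 WT libraries, 100 in WT replicate 4 and 71 to 121 in Setd8-LKO + TCPOBOP. S100a9 was called with all libraries (log2 fold change 1.5, adjusted p = 0.0492, edgeR) and S100a8 was not (1.36, adjusted p = 0.0675), and both were called higher without replicate 4. Of 13 macrophage and Kupffer cell markers 4 were listed and rose, summing to 99 to 320 in the other 4 WT libraries, 218 in replicate 4, and 588 to 947 in Setd8-LKO + TCPOBOP. All 6 cholangiocyte markers and 4 of 8 stellate cell and fibroblast markers were listed and rose, and of 10 hepatocyte markers 8 were listed, of which 7 fell and Cyp3a11, a target of CAR, rose. Alb, Ttr, Tat and Pck1 stand both among these hepatocyte markers and among the negative acute-phase genes, so their falls are counted in both lists. Of 6 endothelial markers 0 were listed. Over all tested genes, 59% were called higher and 39% lower in Setd8-LKO + TCPOBOP, and 68% and 30.9% in WT + TCPOBOP. Only genes selected for a difference were listed, so a listed marker was likely to be called. In WT + TCPOBOP the listed markers were Marco of macrophages and Cyp3a11 of hepatocytes, which rose, and Ass1 and G6pc of hepatocytes and Lrat of stellate cells, which fell, and no marker of neutrophils was listed. The part of these cells in the levels of Lcn2 and Saa3 was not tested.

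Over the 10 libraries of the WT + TCPOBOP table, Pearson's r on log2(normalized count + 1) was highest with Saa2, the member with the highest mean, for Saa1 (0.999), Lcn2 (0.995), Hp (0.992), Fgl1 (0.983) and Prg4 (0.980), which encodes lubricin. Over deviations from the group means the order was Saa1 (0.998), Lcn2 (0.981), Itih4 (0.977), Hp (0.973) and Prg4 (0.955). For Saa-ps the highest were Fosl2 (0.994), C3 (0.994), Gm15318 (0.993), Gm13021 (0.993) and Clcf1 (0.992), and over deviations Lcn2 (0.901), Saa1 (0.899), Acnat2 (0.895), Gm43702 (0.894) and Saa2 (0.891). Saa1 and Saa2 stood at places 286 and 288 by their level correlation with Saa-ps (0.905 and 0.903).

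Over the 9 libraries of the Setd8-LKO table, the genes most like Lcn2, its member with the highest mean, were Ifi44 (0.996), Gm44148 (0.982), Usp18 (0.982), Oas1g (0.978) and Gm13571 (0.977), of which Ifi44, Usp18 and Oas1g are interferon-induced genes. Over deviations they were Ifi44 (0.987), Saa3 (0.969), Abca13 (0.961), Steap4 (0.957) and Gm44148 (0.950). For Saa-ps they were Gm48236 (0.989), Espl1 (0.989), Hilpda (0.986), Rprd1b (0.984) and Adamts1 (0.983), and among the highest over deviations were Ets2 (0.912), Espl1 (0.883), Gm48236 (0.873) and Oas1g (0.871). These values are descriptions. The correlations of levels share the group difference, which the deviations remove. WT replicate 4 enters both kinds of correlation, and through the WT mean the deviation of each WT library.

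The genes around the clusters did not share 1 direction. Within 50 kb of a cluster, the genes listed for Setd8-LKO + TCPOBOP were Dnm1, 31.3 kb from Lcn2, which rose (log2 fold change 2.68), and Col27a1 and Whrn, 9.57 kb and 49.0 kb from the Orm genes, which fell (-1.74 and -1.54). The nearest listed genes to the Saa cluster were Abcc6 at 682 kb on the Saa3 side (-2.55) and Gm2788 at 2124 kb on the Saa2 side (-1.07, not called). In the table for WT + TCPOBOP the nearest other listed gene to any member was Ass1, 864 kb from Lcn2 (-1.68).

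The chromatin lists covered WT and Setd8-LKO + TCPOBOP, with 1 list for each assay and condition and no value per library, so differences between them have no replicate check. H3K27ac, a histone mark of active promoters and enhancers, lay within 1 kb of the start of 4 members (Orm1, Orm2, Orm3 and Saa4) in both conditions, against 25.1% of the 55450 annotated genes in WT and 27.3% in Setd8-LKO + TCPOBOP. Open chromatin by ATAC-seq lay at the same 4 starts in WT and only at Orm1 and Orm2 in Setd8-LKO + TCPOBOP, against 19.4% and 16.6% of genes. No list had a peak within 1 kb of the start of Saa1, Saa2, Saa-ps or Lcn2, although Lcn2 and Saa-ps rose. CTCF, the insulator protein, was at 0 of the 9 starts in both lists, against 2.72% and 19.1% of genes. SMC3, a subunit of cohesin, was at the Saa3 start in WT and at 0 in Setd8-LKO + TCPOBOP, against 7.25% and 27.1%.

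At Saa4, the member that fell, the H3K27ac peak was kept, with a fold enrichment of 17.4 in WT (chr7:46731915-46732608) and 14.9 in Setd8-LKO + TCPOBOP (chr7:46731945-46732590). The ATAC-seq peak over its start (chr7:46732563-46732719, fold enrichment 8.20), which reaches into the Saa4 promoter shown above, was listed in WT alone. Around Saa-ps, Saa1 and Saa2, the enriched regions lay between genes. H3K27ac and ATAC-seq peaks 3.3 kb before the start of Saa1, between Saa1 and Saa2, were kept (H3K27ac fold enrichment 9.77 and 8.49), with a further H3K27ac peak beside them in Setd8-LKO + TCPOBOP alone (chr7:46746894-46747226, 5.94). An H3K27ac peak between Saa-ps and Saa1 (chr7:46738082-46738631) was kept with 7.38 and 7.81.

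At the Saa3 end of the cluster, an ATAC-seq peak 4 kb before the gene was kept, and an H3K27ac peak next to it was listed in Setd8-LKO + TCPOBOP alone (chr7:46720008-46720322, 7.81). The SMC3 peak inside Saa3 (chr7:46714558-46714946, 14.8) was listed in WT alone. At the start of the neighbour Saal1, CTCF (fold enrichment 74.5, 5063 bp from the Saa3 start) and SMC3 (47.6, 5060 bp) were both listed in Setd8-LKO + TCPOBOP alone. At the Orm genes all 9 H3K27ac peaks of WT were kept, and the one in Orm3 was wider in Setd8-LKO + TCPOBOP, where it reached the start of the gene (chr4:63356164-63357127 against chr4:63356618-63357085). The ATAC-seq peak in Orm3 and that at chr4:63359967-63360191, between Orm3 and Orm2, were listed in WT alone. The ATAC-seq peak just before the Orm2 start (chr4:63362206-63362434 in WT) was kept. At Lcn2 the nearest regions of any of these assays within 50 kb lay in Ciz1, at 17096 bp or more from the Lcn2 start.

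**Figure D5:**
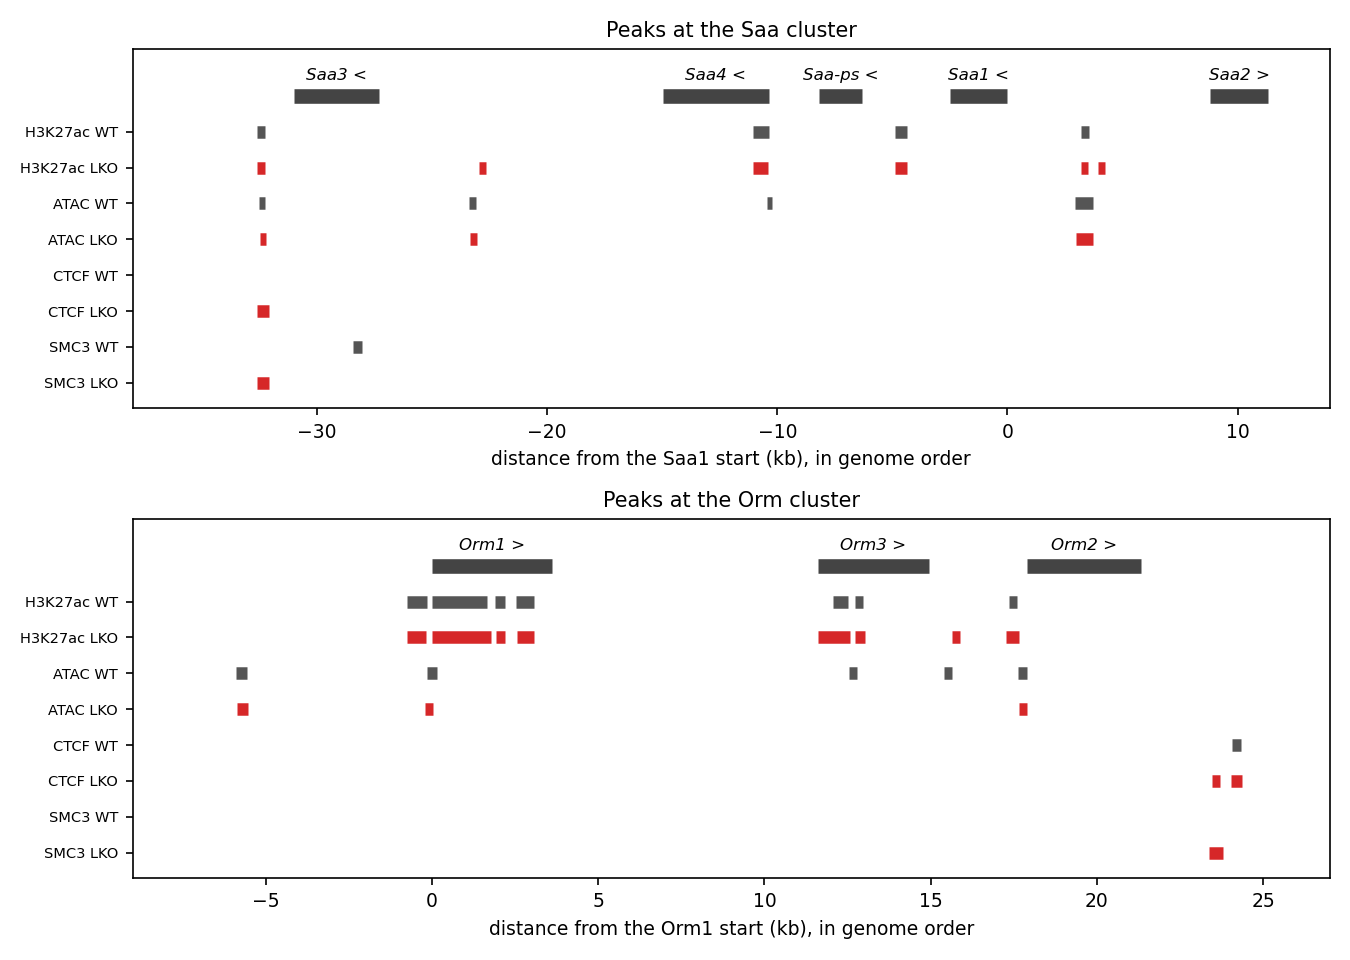
Peaks of 4 assays at the Saa cluster (top) and the Orm cluster (bottom) in WT (grey) and Setd8-LKO + TCPOBOP (red), by distance in kb from the start of Saa1 or Orm1, with genes as dark bars, < or > for their strand, and the narrowest peaks drawn wider than they are. The ATAC-seq peak at the Saa4 start appears in WT alone, and the H3K27ac peaks of WT in the windows drawn appear in both rows.

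Within 50 kb of the 3 clusters together, 17 H3K27ac peaks were kept, 3 were gained and 0 lost in Setd8-LKO + TCPOBOP. For ATAC-seq 10 were kept, 0 gained and 3 lost, for CTCF 4 were kept, 5 gained and 0 lost, and for SMC3 3 were kept, 5 gained and 4 lost. The CTCF list held 20905 peaks in Setd8-LKO + TCPOBOP and 5838 in WT, the SMC3 list 21615 and 13045, the ATAC-seq list 23386 and 27307, and the H3K27ac list 27752 and 27983. No island of Lamin A/C, which lines the nuclear envelope, or of H4K20me3, a mark of heterochromatin, reached into the 3 loci. The nearest islands were 404560 bp from the Orm genes (H4K20me3, Setd8-LKO + TCPOBOP), 425688 bp from the Saa genes (H4K20me3 in both) and 3911749 bp from Lcn2 (H4K20me3 in both).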

How the data were processed

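RNA-seq reads of liver were filtered by the authors with PRINSEQ, aligned to mm10 with HISAT2, and counted and normalized with metaseqR. How reads with several matches were counted, and with which strand setting, is not given in the sources used here. The deposited tables hold raw counts and normalized counts (a score rounded to whole numbers, raw counts times 1 factor for each library) of the genes the authors selected. Their fold changes, p-values, FDR and group means were not used, and neither were 114 columns of transformed counts.

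The 9 genes and all gene lists were chosen with earlier results of these data known. Raw counts of every listed gene with at least 10 counts in as many libraries as the smaller group had were tested with edgeR 4.0.16 (quasi-likelihood, R 4.3.3), with the authors' factors as scaling and Benjamini-Hochberg adjustment over the tested genes of a table. The SE is the absolute log2 fold change over the square root of F. Means of single genes went to an exact two-sided permutation test (scipy 1.17.1). The edgeR step was tested on simulated data. DESeq2 1.42.0, limma 3.58.1, other scalings and filters, adjustment over 55450 genes, run terms, a replicate block and leaving out each library served as alternatives. No test between the 2 treated groups had been planned, and the one given, over the genes in both tables with all 3 groups in 1 fit, was added after the values were seen. The replicate numbers did not pair the samples. Named genes are the members, at most 4 genes of each list by absolute log2 fold change, the 5 genes most like the leading member and Saa-ps, the 3 nearest listed genes on each side, and Kmt5a; genes named outside this rule are marked or belong to lists given whole. Some items that the rule would name are not reported here.

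For ATAC-seq and ChIP-seq the authors called peaks with MACS2 2.2.7.1, and the deposited lists hold the fold enrichment as a ratio and the −log10 p of each peak. For CUT&Tag they called islands with SICER2, and the deposited value is an island score. They had reduced ChIP-seq and CUT&Tag reads to the smallest sample first, which affects how many weak peaks are listed. How replicates were pooled is not given in the sources used here. A locus was the members within 100 kb of each other with 50 kb on each side, and peaks were matched by 1 bp. Transcript and promoter identity came from local alignment with Biopython 1.88. Transcript length was that of the first GENCODE transcript of each gene. The methods call the RNA samples biological replicates (mice), and p-values measure the spread between these livers. The files give no total depth. Intervals are at 95%. Those of the ratios and shares of Saa-ps reads cover counting error only, and those of log2 differences come from the SE of the edgeR fit.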

Additional observations from a re-analysis of the deposited data

Results flagged for a closer look

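The level of all 9 genes in WT replicate 4 lay far from the other 4 WT libraries. The gap to the nearest library, as a share of the whole range of the 5, was 1.0 for Saa-ps, 0.992 for Lcn2 and Saa2, 0.989 for Saa1, 0.979 for Saa3, 0.948 for Saa4, 0.857 for Orm2, 0.782 for Orm3 and 0.76 for Orm1. For Saa-ps this rests on 2 reads. These 9 were the only gaps past the 95% critical value among 22 groups of these genes, where chance passes it for about 1 group in 20, and the genes are not independent since they share the library.

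By the exact test, the level of 2 genes after TCPOBOP differed between the Setd8-LKO and the wild type livers. The log2 difference of Setd8-LKO + TCPOBOP from WT + TCPOBOP was -3.61 for Saa-ps (exact permutation p = 0.00794) and -1.09 for Orm2 (exact permutation p = 0.0238), both lower in 4 of 4 Setd8-LKO libraries. For Orm2 the adjusted p of edgeR over the genes in both tables was 0.115.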

How the results depend on the processing

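All calls of Saa-ps, and those of Orm2 and Orm3 in WT + TCPOBOP, kept their direction and stayed past the threshold under every alternative run. The sign of Saa3 in Setd8-LKO + TCPOBOP turned to 0.47 with limma, 0.58 with the run as a term, 1.91 within run B and 0.53 with a replicate block, and leaving out 1 library gave -1.75 to 1.51, the highest without WT replicate 4. DESeq2 gave no adjusted p for Saa3 and Saa4. The log2 difference of Lcn2 between the treated groups turned to 0.47 with the run as a term and 0.17 with TMM factors, and leaving out 1 library gave -0.24 to 0.019. Lcn2 in Setd8-LKO + TCPOBOP lost its call under 11 of 19 alternatives, Lcn2, Saa1 and Saa2 in WT + TCPOBOP under 4, 8 and 13 of 20, and Orm1 under 2. Of the other calls in Setd8-LKO + TCPOBOP, those of Orm2 and Saa4 were lost over the whole annotation (adjusted p = 0.0571 and 0.0592) and, with Orm3, within run A, which holds 1 Setd8-LKO library.

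The number of genes called was 672 in WT + TCPOBOP and fell to 364 with TMM factors and 336 with DESeq2 size factors over the listed genes. These moved the median log2 fold change of the table by -0.99 and -1.17, and left 151 and 123 genes higher against 462. In Setd8-LKO + TCPOBOP, DESeq2 size factors moved the median by -0.82 and left 1010 genes higher and 1524 lower of 2534 called, against 2245 and 1483 of 3728. Leaving out 1 library gave 3470 to 3685 and 650 to 676 calls, and 210 to 230 between the treated groups. The replicate block gave 3506 calls in Setd8-LKO + TCPOBOP and 660 in WT + TCPOBOP. Same-numbered libraries had correlations of deviations of -0.15 to 0.068 and -0.43 to 0.10, so the numbers were not taken as pairs.

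With 20 kb on each side of the loci, 11 H3K27ac, 6 ATAC-seq, 1 CTCF and 0 SMC3 peaks were kept, and 3 CTCF and 2 SMC3 peaks were gained. With 100 kb, 26 H3K27ac and 17 ATAC-seq peaks were kept, 5 H3K27ac, 15 CTCF and 11 SMC3 peaks were gained, and 2 H3K27ac and 5 ATAC-seq peaks were lost. A −log10 p of at least 20 left 1 ATAC-seq peak gained. Requiring an overlap of 50% of both peaks gave 1 H3K27ac peak lost, 1 ATAC-seq peak gained, 2 CTCF peaks kept, 2 CTCF peaks lost and 1 SMC3 peak kept. With 500 bp around the start, 0 members had SMC3 in WT. The cause of the changes with the scaling, the test or the run was not tested.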
